A study of Mus musculus with 10 samples.

Results

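Of the 2369 regions that both SOX2 ChIP-seq libraries called in mouse embryonic stem cells, 445 had their SOX2 summit within 5 kb of the start or end of a protein-coding gene. They made up 18.8% of the SOX2 regions (exact binomial 95% interval 17.2 to 20.4, counting error only). A region was a merged pair of overlapping peaks from the 2 SOX2 lists, and its summit was that of the peak with the higher rank of fold enrichment within its own list. Distances were measured to the starts and ends of 21631 RefSeq genes on mm10. The members were thus chosen by the SOX2 peaks, the fold enrichments and the gene ends, so those quantities are described below and not tested. SOX15 peaks took no part in the choice. Of the remaining regions, 868 lay inside a gene and 1056 between genes, all over 5 kb from an end.

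The cells were mouse embryonic stem cells kept in 2i/LIF, a medium that combines 2 kinase inhibitors with the cytokine LIF and holds such cells in the naive state. Either SOX2 or SOX15 carried an HA epitope tag, knocked in at its own locus, and chromatin fixed with formaldehyde was precipitated through that tag. The 10 samples comprised 2 SOX2-HA ChIP libraries, 3 SOX15-HA ChIP libraries and 5 input libraries without antibody. The labels name no other treatment, no strain and no clone, and are silent on how replicates were grown, so the spread between libraries may be technical. Peak lists hold no RNA, so the cell type could not be checked against expressed markers, and the input libraries were not used here.

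SOX2 is an HMG-box transcription factor that bends DNA in the minor groove and, in embryonic stem cells, often binds beside OCT4 (Pou5f1) on a composite site made of a SOX element and an octamer. Most of its known sites are enhancers, but several of the best studied lie close to a gene: the upstream enhancer of Pou5f1, the proximal promoter of Nanog, the downstream element of Sox2 itself, and elements at the 3′ ends of Fgf4 and Utf1. SOX15 is a relative of SOX2 with the same DNA-binding domain, expressed in embryonic stem cells and in muscle precursors.

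The promoter sequences are shown first, because they hold the DNA under the summits of members at gene starts. RefSeq promoter windows of GRCm38.p6, which run from 250 bases before to 50 bases after a gene's start, held the summits of 18 members in 21 windows. Of these windows, 16 belonged to members with no SOX15 peak and 3 to members with a peak in all 3 SOX15 libraries. The 7 windows printed here are 4 without a SOX15 peak (Nrarp, a regulator of Notch signalling; Gadd45g, a growth-arrest and stress gene; Pipox, a peroxisomal oxidase; and Nanog), 1 with a peak in SOX15 replicate 3 alone (Ptma, prothymosin alpha) and 2 with a peak in all 3 SOX15 libraries (Grcc10, beside the U7 RNA gene Rnu7, and the histone gene H2ac8). Capitals mark matches, on either strand, to the SOX cores CATTGT and CTTTGT, the octamer ATGCAAAT, or TTGT followed by any base and ATGCAAA. The last is the inner part of the joined site, in which CATTGT, any base and ATGCAAAT follow each other. Each sequence runs 5′ to 3′ on the strand of the gene.
Nrarp (chr2:25180508-25180807, plus strand): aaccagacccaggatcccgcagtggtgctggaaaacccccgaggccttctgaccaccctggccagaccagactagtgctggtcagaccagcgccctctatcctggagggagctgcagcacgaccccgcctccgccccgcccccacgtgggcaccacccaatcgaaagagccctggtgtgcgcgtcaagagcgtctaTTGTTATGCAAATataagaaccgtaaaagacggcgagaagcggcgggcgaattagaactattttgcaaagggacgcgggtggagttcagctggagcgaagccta
Gadd45g (chr13:51846425-51846724, plus strand): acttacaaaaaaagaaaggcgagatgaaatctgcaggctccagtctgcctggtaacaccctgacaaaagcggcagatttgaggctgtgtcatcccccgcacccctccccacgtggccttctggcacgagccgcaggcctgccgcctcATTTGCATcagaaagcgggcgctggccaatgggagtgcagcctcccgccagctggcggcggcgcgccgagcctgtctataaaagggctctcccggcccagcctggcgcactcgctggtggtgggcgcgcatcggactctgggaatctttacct
Pipox (chr11:77893823-77894122, minus strand): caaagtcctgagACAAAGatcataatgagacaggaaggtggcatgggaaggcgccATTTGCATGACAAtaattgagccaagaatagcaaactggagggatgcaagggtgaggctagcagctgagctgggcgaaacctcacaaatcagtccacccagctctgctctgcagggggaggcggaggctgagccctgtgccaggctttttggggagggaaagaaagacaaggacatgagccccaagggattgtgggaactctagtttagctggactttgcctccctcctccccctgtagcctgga
Nanog (chr6:122707239-122707538, plus strand): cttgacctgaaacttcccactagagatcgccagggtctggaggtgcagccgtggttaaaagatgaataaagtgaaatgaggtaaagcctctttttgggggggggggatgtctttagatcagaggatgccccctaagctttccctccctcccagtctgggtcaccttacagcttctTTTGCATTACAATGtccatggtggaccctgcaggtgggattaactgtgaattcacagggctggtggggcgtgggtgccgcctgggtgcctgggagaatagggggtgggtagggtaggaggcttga
Ptma (chr1:86526307-86526606, plus strand): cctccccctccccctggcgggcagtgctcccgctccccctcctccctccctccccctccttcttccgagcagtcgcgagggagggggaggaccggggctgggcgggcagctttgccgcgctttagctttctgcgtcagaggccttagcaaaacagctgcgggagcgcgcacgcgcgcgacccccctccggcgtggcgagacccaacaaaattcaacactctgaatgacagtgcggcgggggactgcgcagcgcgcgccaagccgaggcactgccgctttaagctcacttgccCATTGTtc
Grcc10 (chr6:124741020-124741319, minus strand): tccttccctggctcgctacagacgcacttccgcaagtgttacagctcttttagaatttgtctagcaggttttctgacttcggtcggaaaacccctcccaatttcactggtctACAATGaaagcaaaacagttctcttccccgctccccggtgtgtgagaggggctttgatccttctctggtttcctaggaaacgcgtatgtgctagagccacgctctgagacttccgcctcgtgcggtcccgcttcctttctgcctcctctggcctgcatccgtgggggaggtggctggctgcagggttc
H2ac8 (chr13:23571171-23571470, minus strand): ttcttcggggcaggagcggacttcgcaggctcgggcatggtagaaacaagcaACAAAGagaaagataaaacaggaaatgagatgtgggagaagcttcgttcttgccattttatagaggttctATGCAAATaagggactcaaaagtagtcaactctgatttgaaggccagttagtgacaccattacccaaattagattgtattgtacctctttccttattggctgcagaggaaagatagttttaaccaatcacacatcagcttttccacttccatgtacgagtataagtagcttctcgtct

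The octamer ATGCAAAT stood in 5 of the 21 windows, from 4 of the 18 members, against 1.68% of 21020 protein-coding promoter windows of the same length. The windows that held it were those of Nrarp, Gadd45g, Pipox, H2ac8 and H2bc8, the last 2 being overlapping windows of 1 divergent histone gene pair. CATTGT stood in 11 of the 21 windows, from 9 of the 18 members (10.5% of all windows). CTTTGT stood in 8 windows, from 7 members (16.9% of all windows). The full joined site was in none of the 21 windows and in 0 of 21020. Its inner part stood in 4 of the 21 windows and 3 of the 18 members (Nrarp, Pipox and Nanog), against 8 of all 21020 windows (0.0381%). That motif overlaps the octamer and was chosen after the Nrarp and Nanog sequences had been seen. The 4 printed windows without a SOX15 peak each hold the octamer or the inner part, and are not typical of the 16. Of those 16 windows, 3 held the octamer and 4 the inner part. The windows of Mtf2 and Fbxo27, which rank next after Pipox among them, held neither and are not printed. The general promoter elements CCAAT (8 of 21; 38.5% of all), GGGCGG (8 of 21; 46.6% of all) and TATAAA (3 of 21; 12.7% of all) were searched in the same way, on both strands. A match is a run of letters and not a mapped site.

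The SOX2 lists held 2676 and 4817 peaks (replicates 1 and 2), and the SOX15 lists 217, 672 and 437 (replicates 1, 2 and 3). The files give no read counts, so depth is unknown, and where no peak was called, weaker binding cannot be told from none. The weakest peak kept in each list had a −log10 q of 2.10 and 2.20 for SOX2, and of 2.76, 2.03 and 1.31 for SOX15; SOX15 replicate 3 was thus cut at the most lenient level. Fold enrichments are the authors' own value for each peak, and are comparable only within 1 list.

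Members lay at all distances inside the limit. There were 72 within 500 bp of a gene end, 58 from 500 to 1000 bp, 134 from 1 to 2.5 kb and 181 from 2.5 to 5 kb. The summit fell inside the nearest gene for 182 members. Strand was known for the nearest gene of 352 members, and for 208 of these (59.1%, interval 53.8 to 64.3) the nearest end was the start. For the other 144 it was the 3′ end. A single protein-coding gene lay within 5 kb of 360 members, 2 genes within reach of 65, and 5 genes within reach of 3.

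A member needs overlapping peaks of both SOX2 lists, so close summits follow largely from the rule and are only described. The summits of the 2 SOX2 libraries lay a median of 25 bp apart at members and 22 bp at the other regions. They lay within 50 bp of each other at 75.5% of members and 81.3% of the other regions. With both summits measured separately, 443 of the 445 stayed within 5 kb, and 441 kept the same nearest gene. Just inside the limit stood regions of Pigl (4927 bp), Snx12 (4986 bp) and Vmn1r1 (4999 bp), with folds in replicates 1 and 2 of 14.6 and 17.6, 10.1 and 15.5, and 7.68 and 13.6. Just outside stood Ireb2 (5006 bp), Nt5e (5018 bp) and Pramel6 (5045 bp), with 7.83 and 10.1, 10.8 and 14.0, and 21.7 and 27.0. Folds of these few regions overlapped across the limit, with the highest, at Pramel6, just outside it.

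SOX2 fold enrichment at members was close to that at the other regions. The median was 8.61 in replicate 1 and 11.1 in replicate 2 at members, and 8.72 and 11.2 at the others, a log2 difference of -0.011 ± 0.010 (SD, n = 2). Folds at members ran from 3.36 to 44.7 in replicate 1 and from 3.42 to 64.5 in replicate 2. The median width was 409 bp for members and for the others.

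**Figure D1:**
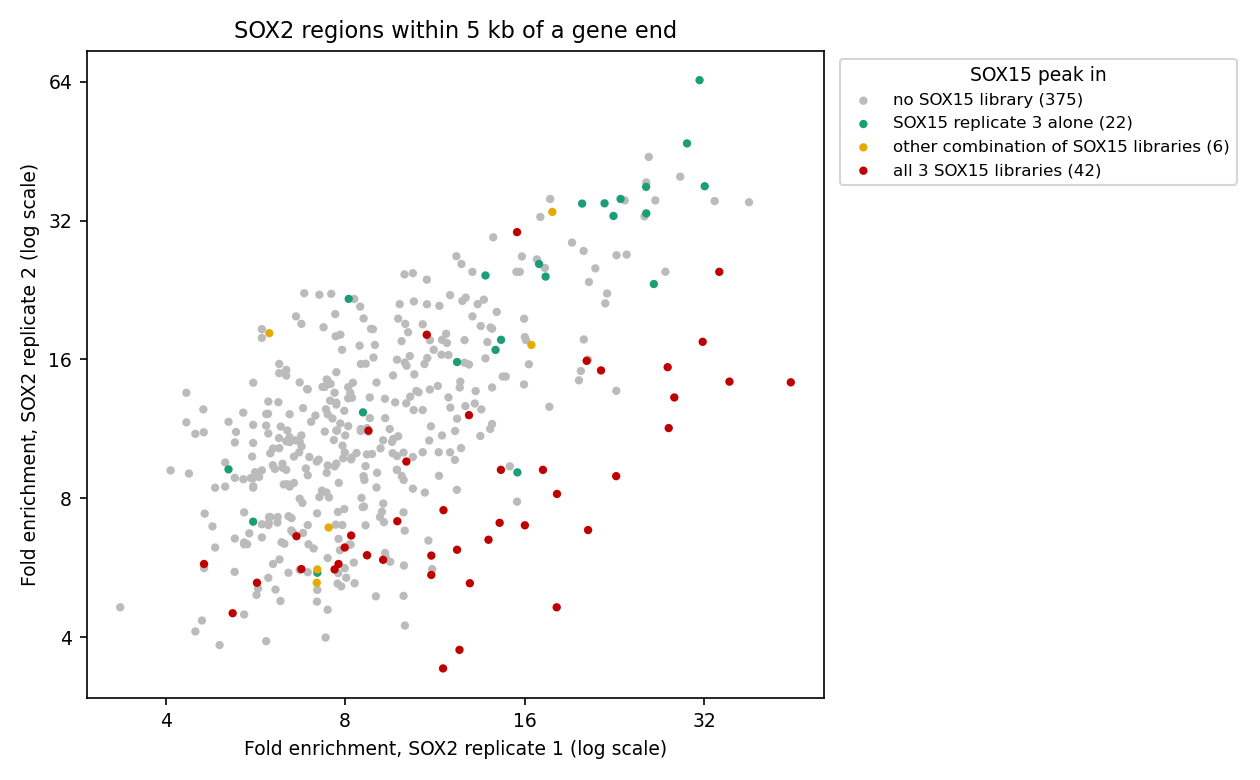
Deposited SOX2 fold enrichment of the 445 regions within 5 kb of a gene end, replicate 1 on the x axis and replicate 2 on the y axis, both on log scales; each point is 1 region, coloured by the SOX15 libraries with a peak on it. The 42 regions with a peak in all 3 SOX15 libraries lie mostly low and to the right, with median folds of 12.7 in replicate 1 and 7.04 in replicate 2, and the 22 with a peak in SOX15 replicate 3 alone lie mostly at the upper right.

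The strongest members, by mean rank of fold over the 2 lists, included genes of the pluripotency circuit and its signals. The highest was the region at chromosome 7, 140959258 to 140960033, 35 bp inside the start of Ifitm2, which encodes an interferon-induced membrane protein, with folds of 31.5 and 64.5 in SOX2 replicates 1 and 2. Next came a region at chromosome 2, 52071294 to 52072572, 559 bp outside Rif1, a regulator of replication timing and DNA repair, with 38.1 and 35.1. The region at chromosome 17, 35503744 to 35504395, 1975 bp upstream of the start of Pou5f1, which encodes OCT4, had folds of 29.97 and 47.0.

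Il6st encodes gp130, the receptor subunit through which LIF signals. Its region at chromosome 13, 112462297 to 112462959, lay 1491 bp upstream of the start, with folds of 32.1 and 38.0. The region of Sox2 itself, at chromosome 3, 34653762 to 34654340, lay 1593 bp past the 3′ end of the gene and had folds of 33.3 and 35.3. A region 1497 bp inside the start of Tcf7l1, the HMG-box factor that represses WNT target genes in embryonic stem cells, at chromosome 6, 72787291 to 72787866, had 25.9 and 44.0. A region 2862 bp past the 3′ end of Sox21, another SOX gene, had 25.6 and 33.2.

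Others among the 20 strongest stood near Gja1, which encodes the gap-junction protein connexin 43 (2869 bp upstream; folds 29.2 and 39.8), and Kat2b, a histone acetyltransferase (4889 bp upstream; 26.5 and 35.4). Dll1, a Notch ligand, had a region 3899 bp upstream with folds of 23.2 and 35.6. Spp1, which encodes the secreted protein osteopontin, had one 978 bp upstream with 23.7 and 27.0. None of the 20 belonged to the histone clusters, but histone regions were only 20 of all 445 members. Of the 20 strongest, Taf12 alone had a peak in all 3 SOX15 libraries, against 9.44% of all members. So few regions cannot tell either count from the share over all members. The Taf12 region, at chromosome 4, 132269595 to 132270392, had its summit within 1 kb of Rnu11, the gene of the minor-spliceosome RNA U11.

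**Figure D2:**
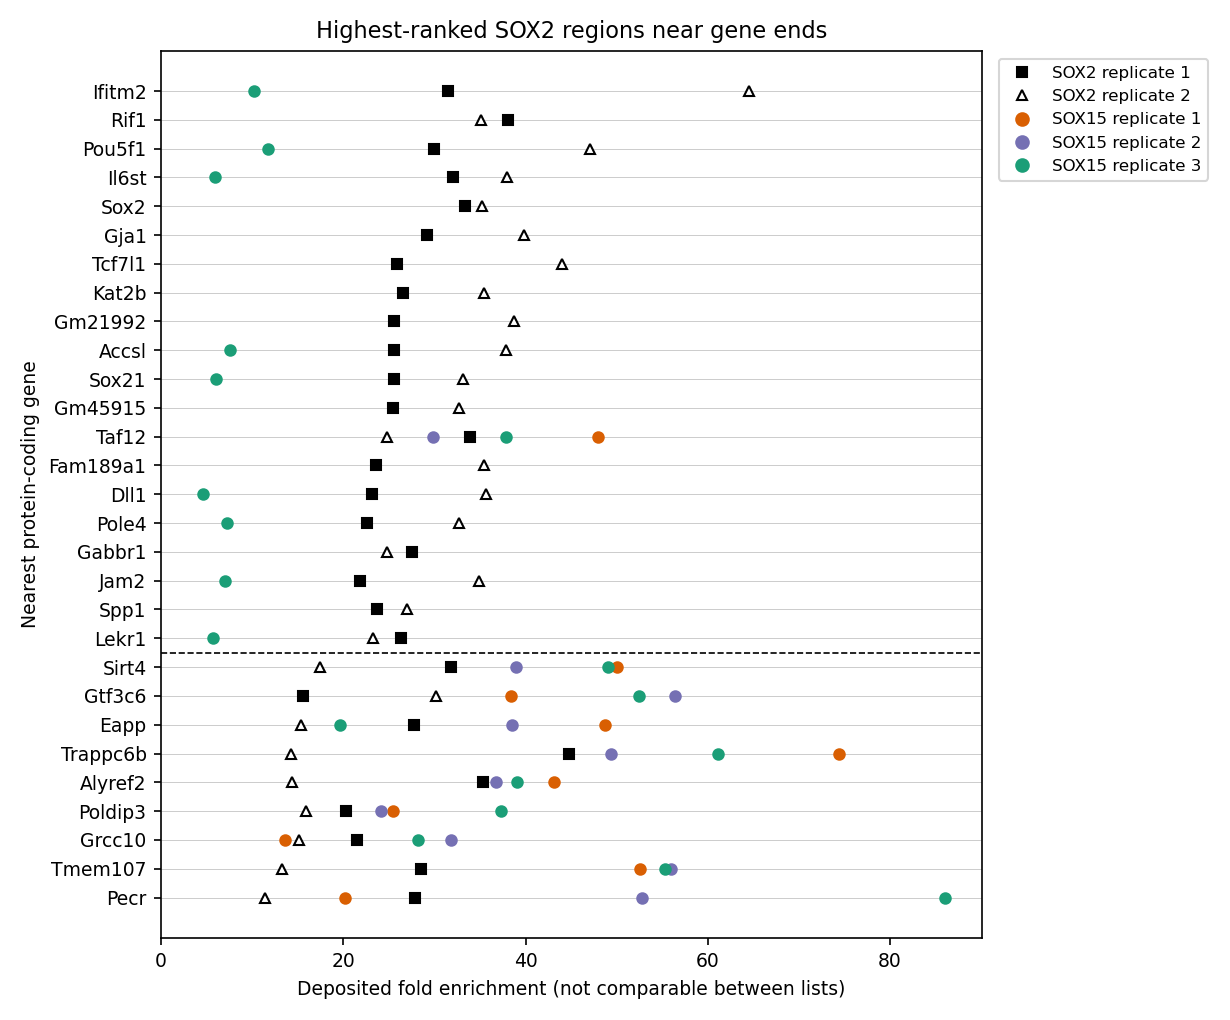
Deposited fold enrichment (x axis, linear) in each of the 5 ChIP lists for the 20 highest-ranked SOX2 regions near gene ends (above the dashed line) and for the 9 further highest-ranked regions with a peak in all 3 SOX15 libraries (below it); a missing coloured point means no peak in that SOX15 list. In the upper group SOX15 points are mostly absent or from replicate 3 alone, as at Pou5f1 (11.8), while every region of the lower group carries 3.

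Members stood at the ends of 512 protein-coding genes, 2.37% of the 21631, with 1 member at 470 genes, 2 at 37 and 3 at 5. The share of a gene list with a member is read beside that 2.37% as a description only, since the rule used the SOX2 regions and the gene ends. Of 15 core pluripotency genes and cofactors, 8 had a member (53.3%), among them Rif1, Pou5f1, Sox2, Trp53, Utf1, Sall4 and Mycn. Of 18 naive pluripotency genes, 8 had one (44.4%): Tfcp2l1, Klf2, Fbxo15, Dppa3, Tbx3, Nanog, Nr0b1 and Dppa5a. In each of these lists, 7 of the 8 genes carried no SOX15 peak. That is near the general share, since 84.3% of all 445 members carried none. The exceptions were Pou5f1, with a peak in replicate 3 (fold 11.8), and Tbx3, with a peak in replicate 2 (5.91).

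The pluripotency members spanned most of the range of SOX2 folds. Tfcp2l1, a naive-state transcription factor downstream of LIF, had folds of 21.9 and 21.2 at a region 2289 bp upstream of its start (chromosome 1, 118625365 to 118625926). Klf2, a Krüppel-like factor of the naive state, had 19.9 and 15.1 at 2866 bp upstream. Nanog, the homeobox factor of the naive state whose promoter is printed above, had only 6.76 and 10.4, with the summit 77 bp upstream of its start (chromosome 6, 122707205 to 122707761). Dppa3, a maternal-effect gene of the naive state and germ line, ranked far lower in replicate 1 than in replicate 2, with folds of 7.59 and 22.2. Tbx3, a T-box factor, did too, with 5.97 and 18.2. The lowest of the naive list was Dppa5a, with 4.64 and 5.65.

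Several core genes had their region at the 3′ side. The region of Utf1, a chromatin-associated pluripotency factor, lay 567 bp past its end (chromosome 7, 139945485 to 139945842) with folds of 9.50 and 11.3. Fgf4, the growth factor that drives ERK signalling in these cells, had its region 879 bp inside its end (chromosome 7, 144864195 to 144864608) with 14.1 and 13.9. Trp53, the p53 tumour suppressor, had 10.97 and 18.1 inside its start. Sall4, a zinc-finger factor, had 6.61 and 10.7, and the proto-oncogene Mycn had 5.80 and 6.58.

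Some naive genes without a member had a SOX2 region farther from their ends. The nearest reproducible SOX2 region lay outside the gene for Zfp42 (Rex1), at 13799 bp from an end, Klf5, at 23219 bp, and Klf4, at 49510 bp. For Esrrb it lay inside the gene, 16724 bp from the nearer end, and had a peak in SOX15 replicate 1 alone. For Lifr, the other LIF receptor subunit, it lay 8552 bp away, with folds of 32.4 and 29.9. Sox15 had no region closer than 47377 bp, Hand1, a SOX15 target in trophoblast, none within 138638 bp, and Foxk1, a SOX15 partner in muscle precursors, none within 271386 bp.

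Signalling lists had lower shares than the 2 pluripotency lists, but each share was above the 2.37% of all genes. It was 15% for WNT, 15.8% for TGF-beta, Nodal and BMP, 16.7% for FGF and ERK, and 13.3% for LIF. The formative and primed list had 20% and the chromatin regulators 15%. WNT components with one were Tcf7l1, Fzd2 (a Frizzled receptor; 14.4 and 20.3) and Tcf7 (a TCF factor; 10.1 and 12.9), 3 of 20. The list of TGF-beta, Nodal and BMP genes had 3 of 19: Id3, a BMP-induced inhibitor of bHLH factors (20.5 and 23.5, 1533 bp past its end), and the Nodal antagonists Lefty2 (13.2 and 12.8) and Lefty1 (7.99 and 10.1). FGF and ERK genes had 3 of 18: Fgf4, its receptor family member Fgfr2 (8.76 and 11.2) and the ERK phosphatase Dusp6 (8.28 and 5.81). The LIF list had 2 of 15, Il6st and the kinase gene Pim1 (7.74 and 9.51). Of 20 formative and primed genes 4 had one, Lefty2, Zic5, Lefty1 and Otx2, the last a homeobox factor with 6.17 and 7.29. Chromatin regulators had 3 of 20, among them Mtf2, a Polycomb-associated protein, whose region lay 103 bp from its start with 12.7 and 15.7.

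Lists of other cell types had 0 to 2 genes with a member each. Genes of mesoderm, liver, skeletal muscle, fibroblasts and the 2-cell-like state had 0 among 16, 12, 14, 14 and 10, and lists this short say little beside the 2.37% of all genes. Neuroectoderm had Nes alone (1 of 16), the gene of the intermediate filament nestin, with folds of 16.3 and 15.6 at 3399 bp inside the start. Primitive endoderm had Hnf4a alone (1 of 16), with 7.24 and 22.1, and trophectoderm had Tfap2c alone (1 of 16), with 6.57 and 8.64. These 3 lists had a share of 6.25% each. Kit, a receptor counted in both the germline and the blood lists, had 7.02 and 11.7. With Tfap2c it made up the 2 of 16 germline genes with a member (12.5%), and it was the 1 of 12 blood genes (8.33%). Of 78 ribosomal protein genes, 2 had one, Rps19 and Rpl23 (2.56%), a share near the 2.37% of all genes.

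**Figure D3:**
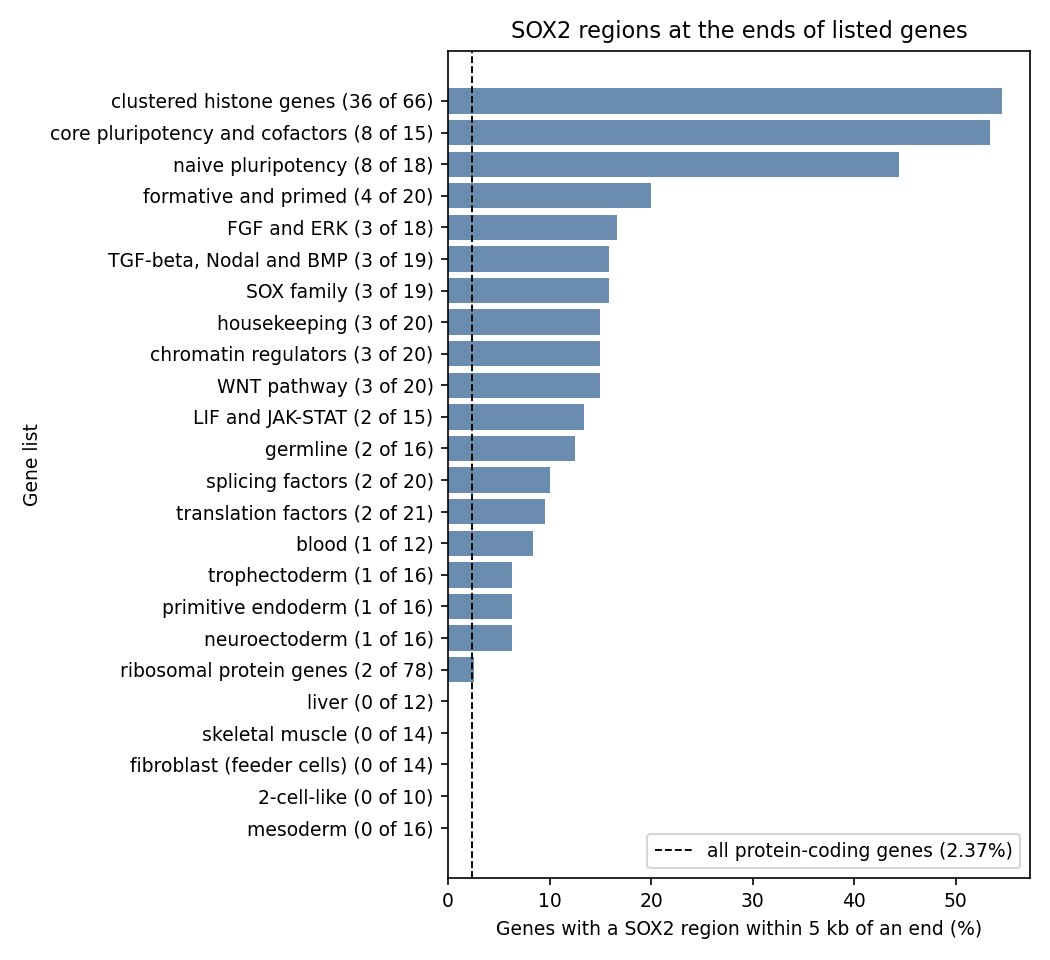
Share of the genes of each of 24 lists with a SOX2 region within 5 kb of an end (x axis, percent; bars start at 0), with the number of genes in brackets and the share of all protein-coding genes, 2.37%, as the dashed line. Clustered histone genes (36 of 66) and the 2 pluripotency lists (8 of 15 and 8 of 18) have the longest bars, and 5 lists have none.

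Clustered histone genes were the other large group, with 36 of 66 genes (54.5%) near a member. These genes encode the replication-dependent histones, lie close together, and share regions, so the 36 genes rested on 21 regions. By kind they were 4 of 6 H1 genes, 9 of 18 H2A, 10 of 18 H2B, 7 of 12 H3 and 6 of 12 H4. For 33 of the 36 genes the highest-ranked member near the gene had a peak in all 3 SOX15 libraries. Near-identical gene copies can exchange reads, so the signal at a single copy is uncertain.

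SOX15 peaks lay on members more often than on the other SOX2 regions. Of the 445 members, 45 (10.1%) had a peak in SOX15 replicate 1, 46 (10.3%) in replicate 2 and 68 (15.3%) in replicate 3. Of the 1924 other regions, 27 (1.40%), 25 (1.30%) and 117 (6.08%) had one. Over all 2369 regions the shares were 3.04%, 3.00% and 7.81%. The difference was 8.71, 9.04 and 9.20 percentage points in the 3 libraries, with a mean of 8.98 ± 0.25 (SD, n = 3). A peak in at least 1 SOX15 library lay on 70 members (15.7%), against 8.02% of all regions. The difference was positive in 3 of 3 libraries, and a two-sided exact sign-flip permutation test gave p = 0.25, the smallest that 3 libraries allow. The size depended on the SOX2 list: with regions taken from SOX2 replicate 2 alone it was 5.01 points, and from replicate 1 alone 15.6 points.

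The share with a SOX15 peak was highest next to the gene ends. Within 500 bp it was 29.2%, 30.6% and 37.5% in SOX15 replicates 1, 2 and 3, and from 500 to 1000 bp 19.0%, 19.0% and 17.2%. From 1 to 2.5 kb it was 4.48%, 4.48% and 9.70%, and from 2.5 to 5 kb 3.87%, 3.87% and 9.94%. Beyond 50 kb, 3, 3 and 34 of 790 regions had one (0.380%, 0.380% and 4.30%). At that distance replicate 3 still had a peak on more regions than replicates 1 and 2. Without the small RNA and histone genes described next, the gradient inside the limit was much flatter: 3.92%, 5.88% and 8.82% of 102 members within 1 kb, against 2.28%, 2.28% and 7.82% of 307 beyond 1 kb. Members nearest a 3′ end carried a SOX15 peak in 16.7%, 15.3% and 20.8% of 144, against 5.29%, 6.25% and 10.6% of 208 nearest a start. Away from the same genes, the shares were 3.28%, 2.46% and 7.38% of 122 at 3′ ends and 1.5%, 2.5% and 7% of 200 at starts, with intervals that overlap in each library.

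**Figure D4:**
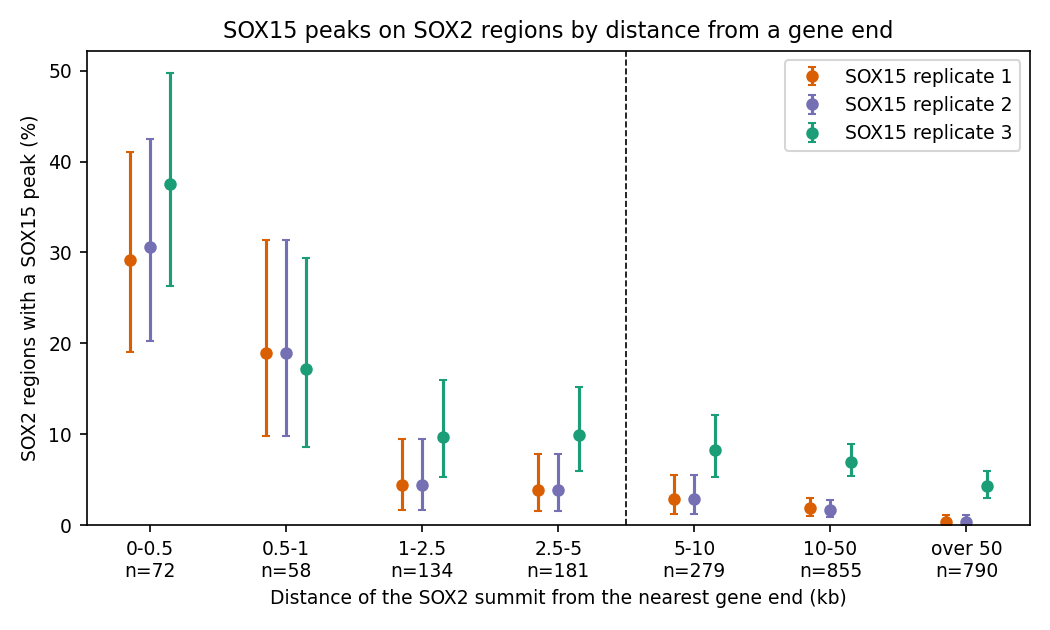
Share of SOX2 regions with a peak in each SOX15 library (y axis, percent) by distance of the SOX2 summit from the nearest gene end (x axis, kb, with the number of regions); bars are exact binomial 95% intervals, which cover counting error only, and the dashed line marks 5 kb. The shares fall from 29.2% to 37.5% within 500 bp to 0.380% to 4.30% beyond 50 kb.

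Most members with a peak in all 3 SOX15 libraries stood at genes of small RNAs or histones. There were 42 such members (9.44%, interval 6.89 to 12.5), against 2.79% of all regions. Of the 13 members within 1 kb of a small nuclear RNA (snRNA) gene, all 13 had a peak in all 3 SOX15 libraries, as did 18 of the 20 within 1 kb of a clustered histone gene and 2 of the 3 within 1 kb of a small nucleolar RNA (snoRNA) gene. Of the 409 members near none of these, 9 did. The snRNA pattern was not particular to gene ends: of 21 other SOX2 regions within 1 kb of an snRNA gene, 18 (85.7%) had a peak in all 3 SOX15 libraries. Without these classes, 11 (2.69%), 13 (3.18%) and 33 (8.07%) of 409 members had a peak in SOX15 replicates 1, 2 and 3, against 8 (0.421%), 6 (0.316%) and 99 (5.21%) of 1901 other regions. The difference was then 2.27, 2.86 and 2.86 points (mean 2.66 ± 0.34, SD, n = 3; higher in 3 of 3; two-sided exact sign-flip permutation p = 0.25, the smallest possible). These classes, which were named after their values were seen, therefore held most of the difference, and the remainder kept its sign.

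snRNA genes encode the RNA cores of the spliceosome and related particles. The region 646 bp inside the start of Sirt4 (chromosome 5, 115489253 to 115490893) had 2 snRNA genes within 1 kb of its summit, with SOX2 folds of 31.8 and 17.5 and SOX15 folds of 49.998, 39.0 and 49.1 in replicates 1, 2 and 3. The region 2411 bp past the end of Trappc6b (chromosome 12, 59040232 to 59041260) had the highest SOX2 replicate 1 fold of all members, 44.7, with 14.3 in replicate 2 and SOX15 folds of 74.4, 49.3 and 61.1. The region near Pecr (chromosome 1, 72255034 to 72256164) had SOX2 folds of 27.9 and 11.4 and SOX15 folds of 20.2, 52.8 and 86.1, the last being the highest fold of its list on any member. Each of these 3 summits lay within 1 kb of an snRNA gene as well as within 5 kb of the protein-coding gene that names it, and which gene the binding serves was not tested.

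Named small RNAs with such a region included those of the minor spliceosome and of histone and ribosomal RNA processing. Rnu12, beside Poldip3, had SOX2 folds of 20.3 and 15.9 and SOX15 folds of 25.5, 24.1 and 37.3. Rnu7, whose RNA processes the 3′ ends of histone transcripts, lay by the Grcc10 promoter printed above (chromosome 6, 124740606 to 124741471), with 21.5 and 15.1 for SOX2 and 13.6, 31.9 and 28.2 for SOX15. Rnu3a, the U3 RNA gene, lay near Gtf3c6 (chromosome 10, 40258328 to 40259302), with 15.5 and 30.2 for SOX2 and 38.4, 56.4 and 52.4 for SOX15. It was the only snRNA member that ranked lower in SOX2 replicate 1 than in replicate 2. Snord118, the U8 RNA gene, lay near Tmem107, with 28.5 and 13.2 for SOX2 and 52.6, 56.0 and 55.4 for SOX15.

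The histone members had lower median folds than the snRNA members in every list. Their medians were 11.4 and 6.38 in SOX2 replicates 1 and 2, against 21.5 and 14.3 at snRNA genes. In the 3 SOX15 lists the medians over members with a peak were 12.7, 15.4 and 10.6, against 38.4, 32.1 and 37.3. The region past the end of H2bc8, an H2B gene (chromosome 13, 23571727 to 23572628), had SOX2 folds of 17.2 and 9.22 and SOX15 folds of 20.6, 24.7 and 20.4. H1f2, an H1 linker histone gene (chromosome 13, 23739273 to 23740593), had 6.76 and 5.62 for SOX2 and 32.1, 17.1 and 14.4 for SOX15. H2bc15 had the lowest SOX2 replicate 2 fold of all members, 3.42, beside 11.7 in replicate 1. The members without a full set of SOX15 peaks were a region near H3c14, with no peak in replicate 2, and a region 2918 bp inside H2bc6, with none.

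Of the 9 members with a peak in all 3 SOX15 libraries and no such gene within 1 kb, 3 lay at genes of the housekeeping and translation lists. With or without SOX15 peaks, 3 of 20 housekeeping genes (15%) and 2 of 21 translation factor genes (9.52%) had a member, against 2.37% of all genes. Polr2a, which encodes the largest subunit of RNA polymerase II, had a region 86 bp inside its start (chromosome 11, 69758141 to 69758797) with SOX2 folds of 22.8 and 8.94 and SOX15 folds of 8.35, 17.6 and 9.37. Eef1a1, a translation elongation factor gene, had one 1735 bp past its end, with 8.71 and 6.02 for SOX2 and 6.61, 9.31 and 12.3 for SOX15. Hspa8, a constitutive heat-shock chaperone gene, had 4.64 and 5.76 for SOX2 and 8.199, 5.43 and 14.9 for SOX15. Others lay near Ceacam19, Slc3a2, Gys1 (with Ftl1 and Bax within 5 kb) and 4930404N11Rik (with Fzr1 and Mfsd12). Most of these were named after their values were seen.

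Members with a peak in SOX15 replicate 3 alone were of another kind. There were 22 of them (4.94%), close to the 4.83% of the other regions and the 4.85% of all. They had the highest median SOX2 folds of any SOX15 pattern among members, 17.1 and 24.3 in replicates 1 and 2. The 375 members without a SOX15 peak had 8.19 and 11.2. High SOX2 folds with this pattern were not particular to gene ends. The 93 other SOX2 regions with a peak in SOX15 replicate 3 alone had medians of 20.7 and 27.8. The SOX15 folds of the 22 members were low, with a median of 6.10 and a range of 3.32 to 11.8. They included Ifitm2 (SOX15 fold 10.2), Pou5f1 (11.8), Il6st (5.96), Sox21 (6.06), Dll1 (4.61), Jam2, a junctional adhesion molecule gene (7.03), and Ptma (7.11). The list of replicate 3 is also the one that reaches to the lowest −log10 q, 1.31; the part of that in these calls was not tested.

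SOX15 replicate 3 stood apart from the other SOX15 libraries among the strongest members. All members were split into 5 equal groups by mean SOX2 rank, and the 409 away from small RNA and histone genes were counted. SOX15 replicate 3 had a peak on 16 of the 79 in the strongest group (20.3%, interval 12.04 to 30.8), against 2 (2.53%) for replicate 1 and 1 (1.27%) for replicate 2. In the group next to the weakest, each SOX15 library had a peak on 1 of 79. In the weakest group the counts were 5 (5.95%), 7 (8.33%) and 9 (10.7%) of 84, so all 3 libraries were nearer to each other there. Those with a peak in all 3 libraries included the regions of Hspa8, Slc3a2 and Gys1.

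**Figure D5:**
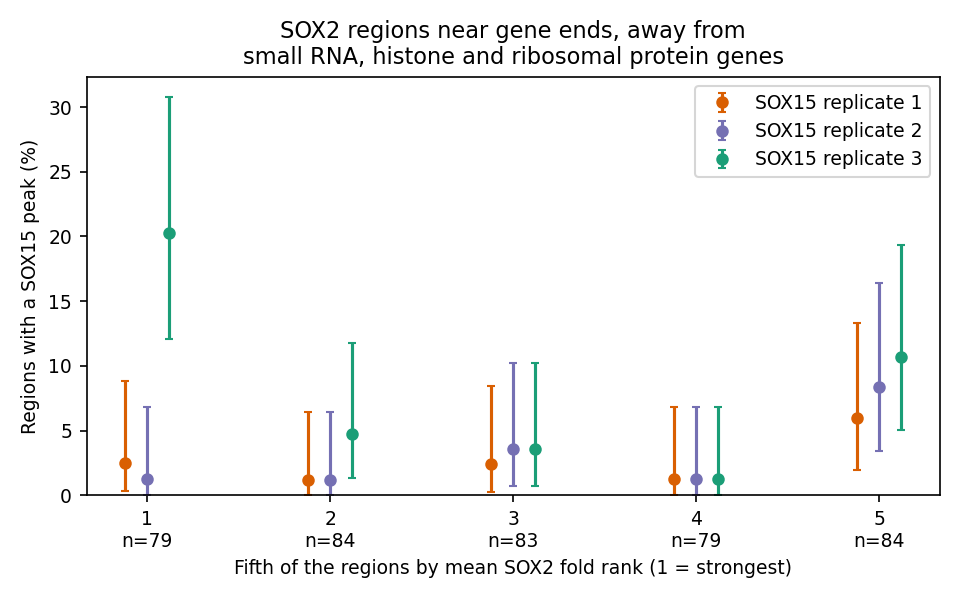
Share of members with a peak in each SOX15 library (y axis, percent) in 5 equal groups of the members by mean SOX2 fold rank (x axis, 1 is the strongest, with the number of regions), for the 409 members with no small RNA, histone or ribosomal protein gene within 1 kb; bars are exact binomial 95% intervals, which cover counting error only. Replicate 3 stands apart in the strongest group (20.3% against 2.53% and 1.27%), and the 3 replicates have overlapping intervals in the other groups.

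The SOX2 libraries themselves differed at the members with SOX15 peaks in all 3 libraries. As percentile ranks of fold among the peaks of reproducible regions, those 42 members had medians of 77.0 in SOX2 replicate 1 and 14.8 in replicate 2, and 38 of the 42 ranked higher in replicate 1. Regions away from gene ends differed in the same direction. The 24 other SOX2 regions with peaks in all 3 SOX15 libraries had medians of 91.1 and 54.4, with 21 of 24 higher in replicate 1. For histone members the medians were 71.1 and 10.2, with 19 of 20 higher in replicate 1; H2ac22 was the exception, with folds of 10.97 and 18.1. For snRNA members they were 93.8 and 67.9, with 12 of 13 higher. For the 21 other SOX2 regions within 1 kb of an snRNA gene they were 91.9 and 64.2, with 15 of 21 higher. The 22 members with a peak in SOX15 replicate 3 alone had 88.3 and 91.5, with 6 of 22 higher in replicate 1, and the 375 without a SOX15 peak had 42.8 and 49.9, with 164 of 375 higher. Over all 445 members the median difference of rank, replicate 1 minus replicate 2, was -1.16, with 212 of 445 higher in replicate 1. Its 95% interval, -2.91 to 1.10, spans both signs. At the 130 members within 1 kb of a gene end the median difference was 8.77. At the 102 of these away from small RNA and histone genes it was 2.37.

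Regions called in 1 SOX2 library only, which are not members, also differed between the libraries at histone genes, but none near a gene end lay by an snRNA gene (0 in each library). Of 299 regions of replicate 1 alone, 127 (42.5%, interval 36.8 to 48.3) lay within 5 kb of a gene end, 28 of them by clustered histone genes. SOX15 replicates 1, 2 and 3 had a peak on 49, 63 and 55 of these 127. Of 2447 regions of replicate 2 alone, 448 (18.3%, interval 16.8 to 19.9) lay within 5 kb, 3 of them by histone genes, and SOX15 had a peak on 3, 5 and 4. The SOX15 peaks within 5 kb of a gene end made up 71.0%, 41.7% and 55.8% of the 3 SOX15 lists, against 21.5% and 18.6% of the SOX2 lists. What sets SOX2 replicate 1 apart from replicate 2 at histone and small RNA genes was not tested.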

How the data were processed

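The members and gene lists were chosen with earlier results of these data known. Titles gave each sample's group and replicate number. Per the submitters' processing notes, Bowtie2, MACS2, deepTools and mm10 were used, with no versions and no roles given; the use of inputs as controls is not given in the sources. Each deposited list belongs to 1 ChIP library, so peaks were called per sample. The authors deposited for each peak a fold enrichment (a linear ratio), a −log10 p-value and −log10 q-value, a summit offset and an integer score; the deposited score equals 10 times the −log10 q, rounded down, and was not used. Folds were ranked within a list.

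SOX2 peaks were merged at an overlap of 1 bp, and a SOX15 peak was counted on a region at the same overlap. RefSeq's GRCm38.p6 gene table, on mm10 coordinates, gave gene ends, symbols and biotypes, and its promoter table gave strand (17274 of 21631 protein-coding genes). Of 514 entries in 24 gene lists, 511 were found. A region belonged to a class when its summit lay within 1 kb of 1 of 1003 snRNA, 1340 snoRNA, 66 clustered histone or 78 ribosomal protein genes, or of a tRNA gene; Rnu3a is listed there as snRNA. Shares carry exact Clopper-Pearson 95% intervals, which cover counting error only, and regions are not replicates. The SOX15 difference was tested over libraries by an exact sign-flip permutation. The scripts were tested on simulated data. Named genes were the 20 highest-ranked members, the 10 highest-ranked with and the 10 without SOX15 peaks in all 3 or no library, up to 30 list members, the 3 regions on each side of 5 kb, and a set of pluripotency and control genes; names outside these were chosen after their values were seen. Alternatives changed the distance limit, the summit, thresholds, overlap, gene set, classes and libraries. Peak sequences outside promoter windows were not used here, and some items are not reported here. Scripts ran under Python 3.11.15 with scipy 1.17.1, numpy 2.4.6, matplotlib 3.10.9 and pandas 2.3.3.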

Additional observations from a re-analysis of the deposited data

How the results depend on the processing

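The SOX15 difference between members and other regions was positive under every alternative run, from 2.24 points (without small RNA, histone, ribosomal protein, tRNA and active genes, an alternative added after seeing the data) to 22.8 points (1 kb limit); it was 2.67 without snRNA, snoRNA and histone genes, 8.90 at a common −log10 q floor (also added), 8.87 to 9.12 without 1 SOX15 library and 5.01 to 15.6 without 1 SOX2 library. Its p of 0.25 is the smallest possible, or 0.5 with 2 libraries, and says nothing about stability. Limits of 1, 2.5 and 10 kb gave shares of members of 5.49%, 11.1% and 30.6%, log2 fold differences of 0.026 (0.17 in SOX2 replicate 1 and -0.12 in replicate 2, opposite in sign), -0.031 and -0.029, and shares of genes of 0.647%, 1.38% and 4.12%. At 1 kb the rank difference was 8.77, against -1.16 at 5 kb, where its interval (-2.91 to 1.10) spans both signs. With genes of every biotype the shares were 33.0% of regions and 2.07% of genes. A −log10 q of at least 5 gave a log2 difference of -0.024. Without snRNA, snoRNA and histone genes it was -0.023, with 2.13% of genes, and the added exclusion of active genes gave 2.09% of genes. Without 1 SOX2 library the share was 18.6% to 21.5%, the log2 difference -0.10 to -0.047, the share of genes 2.90% to 4.54%, and the share nearest a start 57.0% to 64.1%; the rank difference needs both libraries. No paired analysis was possible because no result compares the SOX2 and SOX15 groups in a fit that could take their shared replicate numbers as a block. Depth is unknown, so a missing peak is not absence of binding.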

Other observations

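Etv1, which encodes an ETS transcription factor, was the only gene outside the histone clusters with 3 members. Their summits lay 1559 bp and 609 bp upstream of the start and 4418 bp inside it, with SOX2 folds of 12.003 and 10.1, 7.85 and 11.6, and 13.9 and 17.4 in replicates 1 and 2, and none had a SOX15 peak. The other 4 genes with 3 members were H4c4, H2bc6, H3c3 and H2bc3. Gadd45g had a pair of members upstream of its start, at 659 bp (16.1 and 17.6) and at 88 bp (19.7 and 14.4), also without a SOX15 peak.

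Another SOX2 region lay within 10 kb of 12.1% of members (54) and of 8.94% of the other regions (172). By chromosome, members made up between 10.6% (chromosome 8, 15 of 141) and 28.2% (chromosome 7, 31 of 110) of the SOX2 regions; chromosome 13, which holds the main histone cluster, had 33 of 123 (26.8%) and the X chromosome 13 of 49 (26.5%). Members took up 44 of the 217 peaks of SOX15 replicate 1 (20.3%), 45 of 672 of replicate 2 (6.70%) and 69 of 437 of replicate 3 (15.8%), and 1, 1 and 2 of these peaks reached over more than 1 member, as at Rdm1.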
